A study of Mus musculus with 48 samples.

Results

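The striatum of mice with 1 intact Msh3 allele was compared with that of wild-type mice, both without the Huntington's disease allele. The comparison took every library labelled Msh3+/- (8) or wild type (WT, 8) by genotype, 16 of the 48 striatal RNA-seq libraries of the series. Each group held 4 female and 4 male mice on a C57BL/6 background, and neither group carried Q140. The sample characteristics give 12 months of age, whereas the extraction protocol of the same labels places dissection at 6 months, so the age is uncertain. For scale, 8 Msh3-/- libraries gave the difference from WT with both alleles lost. Another 8 Q140 and 8 Q140 x Msh3+/- libraries gave the same loss of 1 allele in mice with Q140. Q140 is a knock-in Htt allele with a lengthened CAG tract, heterozygous by the labels. The remaining 8 libraries, Q140 x Msh3-/-, entered the fit over all 48 and are in no comparison reported here. The labels do not describe how the Msh3 allele was made, whether mice were littermates or which DNA around Msh3 came with the mutated allele. Bulk tissue was sequenced, so fewer cells of a type and less RNA per cell cannot be told apart.

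Msh3 encodes a MutS-type mismatch repair protein. It is a subunit of the heterodimer MutS beta, which binds loops of unpaired bases left by slippage in repeats. MutL proteins then cut the DNA, and exonuclease, polymerase and ligase replace the excised strand. In Huntington's disease models MutS beta is needed for the expansion of the CAG repeat in spiny projection neurons, the main neurons of the striatum.

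Each library held between 44.8 and 50.6 M (mega) counts in Msh3+/- mice and between 41.6 and 60.9 M counts in WT mice. The sex expected from Xist and Ddx3y matched the label in 16 of 16 libraries. Spiny projection neuron markers were abundant throughout, with the 28 listed genes summing to between 26550 and 28630 CPM (counts scaled by library size with TMM factors) in Msh3+/- and between 25470 and 28970 CPM in WT mice. The library Msh3+/- male 4 stood apart in cortical neuron markers: the 9 tested genes summed to 328.8 CPM, against 192.3 to 216.7 CPM in the other 7 Msh3+/- libraries and 209.1 to 227.8 CPM in WT. Slc17a7, the glutamate transporter of cortical neurons, was at 67.0 CPM in that library and between 3.71 and 18.73 CPM in the other 15. The same library stood apart at genes near Msh3, and values with and without it are given there. Of the 16 libraries, 2 WT ones carry sample names with other prefixes than the 14 that share 1 prefix.

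Few genes differed detectably in the striatum of Msh3+/- mice against WT. Msh3 RNA itself was higher, not lower, and F2r, a gene on the same chromosome that encodes the thrombin receptor PAR1, rose as well. These were the only 2 of 19714 genes tested, or 0.0101%, that passed an adjusted p under 0.05 in edgeR's quasi-likelihood test, which was fitted over all 48 libraries with sex as a term. No gene fell past that threshold. The unadjusted p was under 0.05 at 937 genes, or 4.75%.

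Msh3 (ENSMUSG00000014850, chr13:92211872-92355003 of GRCm38, minus strand) was counted over the whole gene. In WT its lowest, median and highest levels were 26.4, 29.3 and 30.9 CPM. In Msh3+/- they were 72.0, 73.5 and 76.5 CPM, and in Msh3-/- 117.5, 122.6 and 125.7 CPM. The 3 groups did not overlap at any library, and the spread within a group was small beside the steps between them. The log2 fold change of Msh3+/- against WT was 1.35 (SE 0.0346, 95% interval 1.28 to 1.42, edgeR adjusted p = 9.99e-36). An exact permutation test of the 8 against 8 levels gave a 2-sided p of 0.000155, the smallest that 12870 arrangements can give. A count over the gene does not say which exons the reads came from, nor whether protein was made.

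F2r (ENSMUSG00000048376, chr13:95601803-95618487, minus strand) lies 3.25 Mb from Msh3. Its lowest, median and highest levels were 3.06, 3.74 and 4.26 CPM in WT and 4.13, 5.32 and 6.29 CPM in Msh3+/-. Only the library male 4, at 4.13 CPM, lay within the WT range, so the groups overlapped by 1 library. F2r rose by a log2 fold change of 0.52 (SE 0.0979, 95% interval 0.33 to 0.72, edgeR adjusted p = 0.0219), and the exact permutation p of its levels was 0.000311. The permutation p is not adjusted over the genes tested. F2r was picked on these same libraries, so that p is no separate support. The increase was similar in size in females (0.56, SE 0.142) and males (0.49, SE 0.143). Between 148 and 302 counts a library lay behind these levels, and the call depended on single libraries. Leaving out any 1 of the Msh3+/- libraries F3, F4, M2 or M3 or of the WT libraries F1, F3, M3 or M4 moved its adjusted p above the threshold, to at most 0.132, while the log2 fold change stayed between 0.49 and 0.57 whichever of the 16 libraries was left out. Fitting only the 16 libraries gave 0.52 with an adjusted p of 0.0948, and leaving out the 2 WT libraries of another name prefix gave 0.51 with an adjusted p of 0.133. Taking the number stem of the sample name as a term gave 0.42 with an adjusted p of 1. Only 3 stems occur in both groups, in 3 Msh3+/- and 4 WT libraries, so few libraries are compared within a stem.

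**Figure D1:**
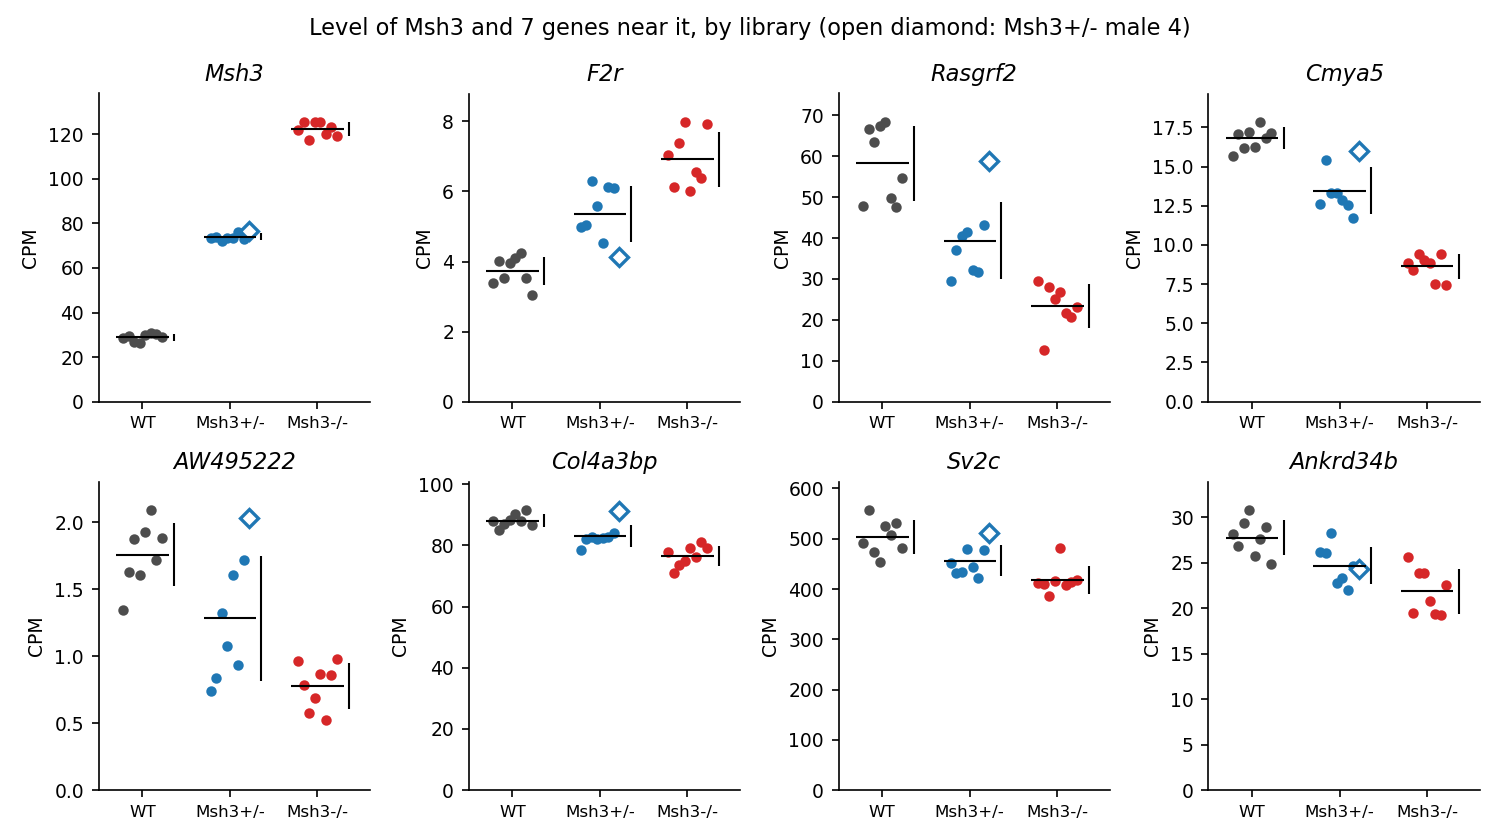
Level in CPM (vertical axes, from 0) of Msh3 and 7 genes near it in the WT, Msh3+/- and Msh3-/- libraries; each point is 1 library, the horizontal line the mean and the bar beside it the mean ± SD (n = 8). Msh3 forms 3 separate bands, and the Msh3+/- male 4 library (open diamond, 76.5 CPM for Msh3) lies within the WT range at F2r, Rasgrf2, Cmya5, AW495222, Col4a3bp and Sv2c.

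Genes around Msh3 were then read for the size of their difference with 1 allele lost against that with both lost. Msh3-/- against WT passed the test at 9 of the 19714 genes (0.0457%), Msh3 and 8 genes within 10 Mb of it, of which F2r rose and the other 7 fell. The loss of Msh3 and any linked DNA that came with the mutated allele cannot be told apart in this design. With 1 allele lost, the same 8 neighbours had smaller differences, and for 7 of them these did not pass the test. The neighbours were picked from Msh3-/- against WT, which shares its 8 WT libraries with Msh3+/- against WT, so the values below stand side by side as a description.

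Rasgrf2, an exchange factor that activates Ras, lies at -0.0802 Mb from Msh3, toward lower coordinates (chr13:91880400-92131656, minus strand). Its lowest, median and highest levels were 47.5, 59.2 and 68.5 CPM in WT, 29.6, 38.8 and 58.9 CPM in Msh3+/-, and 12.6, 24.1 and 29.4 CPM in Msh3-/-. All Msh3+/- libraries but male 4 were below the lowest WT library. The log2 difference was -0.57 (SE 0.125, edgeR adjusted p = 0.186) with 1 allele lost and -1.31 (SE 0.128, adjusted p = 4.99e-09) with both. Cmya5, the myospryn gene (chr13:93040713-93144724, minus strand), stood at 15.7, 17.0 and 17.9 CPM in WT, 11.7, 13.1 and 16.01 CPM in Msh3+/-, and 7.46, 8.83 and 9.43 CPM in Msh3-/-. Again all but male 4 were below the lowest WT library, with log2 differences of -0.32 (SE 0.067, adjusted p = 0.107) and -0.96 (SE 0.0685, adjusted p = 2.87e-15). For F2r the Msh3-/- levels were 6.00, 6.80 and 8.00 CPM, a rise of 0.89 (SE 0.0972, adjusted p = 9.18e-09). These 3 genes lie on the minus strand, and the 220 bases from 250 to 31 bases before their RefSeq starts (GRCm38.p6) are shown because their levels, with that of AW495222, moved most among the neighbours. No GENCODE exon overlaps these windows. Capitals mark a GC box, the letters CCGCCC on either strand, and sequences run from 5′ to 3′ along the gene's strand.
F2r, chr13:95618497-95618716: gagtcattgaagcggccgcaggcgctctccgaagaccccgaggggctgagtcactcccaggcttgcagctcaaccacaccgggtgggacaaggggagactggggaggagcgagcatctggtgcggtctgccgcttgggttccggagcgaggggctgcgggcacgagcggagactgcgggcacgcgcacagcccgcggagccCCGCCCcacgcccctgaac
Rasgrf2, chr13:92131859-92132078: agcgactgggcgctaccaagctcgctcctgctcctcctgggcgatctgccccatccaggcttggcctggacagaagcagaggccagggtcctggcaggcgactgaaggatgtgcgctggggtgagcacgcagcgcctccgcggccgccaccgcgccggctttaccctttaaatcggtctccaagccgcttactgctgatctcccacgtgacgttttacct
Cmya5, chr13:93144755-93144974: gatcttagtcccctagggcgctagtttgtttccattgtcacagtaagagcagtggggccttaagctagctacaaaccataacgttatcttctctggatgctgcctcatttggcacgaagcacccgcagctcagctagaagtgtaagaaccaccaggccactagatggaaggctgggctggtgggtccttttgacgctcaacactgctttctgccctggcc
A GC box occurred 1 time in the F2r window and in neither of the others, and 28.5% of 32851 promoter windows of the same length held at least 1. A TATA box, the letters TATAAA on either strand, occurred in none of the 3, against 3270 of the 32851 windows. The windows end 31 bases before the start, and the bases nearer to it were not searched. The count therefore cannot say whether these promoters have a TATA box there. Their GC contents were 70.9%, 64.5% and 52.7%, beside a median of 51.8% over all windows.

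AW495222, annotated as an antisense RNA gene, spanned 0.743 to 2.03 CPM in Msh3+/- and 1.34 to 2.09 CPM in WT. The groups overlapped, with log2 differences of -0.47 (SE 0.141, edgeR adjusted p = 0.981) with 1 allele lost and -1.17 (SE 0.148, adjusted p = 6.72e-07) with both. The strand setting of the counting is not given in the sources used here, so its reads and those of a gene on the other strand cannot be told apart. Sv2c, a synaptic vesicle protein gene abundant in the basal ganglia, spanned 421.2 to 511.0 CPM in Msh3+/- and 453.3 to 557.2 CPM in WT, with differences of -0.14 (SE 0.0425) and -0.27 (SE 0.0425). Col4a3bp, which encodes the ceramide transfer protein, was at 78.5 to 91.2 CPM and 84.9 to 91.6 CPM, with differences of -0.08 (SE 0.0305) and -0.20 (SE 0.0306). Without male 4, all Msh3+/- values of Col4a3bp were below those of WT, while the Sv2c ranges still overlapped. Ankrd34b, an ankyrin repeat gene, and Map1b, which encodes a microtubule-associated protein of axons, also overlapped between Msh3+/- and WT. Ankrd34b had differences of -0.17 (SE 0.055) and -0.34 (SE 0.0554), and Map1b of -0.11 (SE 0.0442) and -0.21 (SE 0.0443). The adjusted p with 1 allele lost was 0.981 for each of Sv2c, Col4a3bp, Ankrd34b and Map1b.

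On the CPM scale, the step from WT to Msh3+/- was 48.1% of the step from WT to Msh3-/- for Msh3 and 50.7% for F2r. The shares of the other 7 neighbours were 40.7% for Cmya5, 42.4% for Col4a3bp, 48.7% for AW495222, 52.1% for Ankrd34b, 54.4% for Rasgrf2, 54.7% for Sv2c and 55.7% for Map1b. These shares include the library male 4, and no interval was computed for them. Without male 4 the log2 difference of Msh3+/- against WT was farther from 0 at every neighbour, for example -0.675 for Rasgrf2 and -0.144 for Map1b. The shares near the midpoint thus depend in part on that library. On the log2 scale, Msh3+/- was tested against the midpoint of WT and Msh3-/-, and only Msh3 departed from it (1 gene, 0.00507%). Msh3 lay above the log2 midpoint by 0.31 (SE 0.0294, edgeR adjusted p = 1.60e-10), since equal steps in CPM are unequal steps in log2. F2r was 0.07 above its midpoint (95% interval -0.09 to 0.24) and Rasgrf2 0.09 (-0.14 to 0.31). Cmya5 was 0.16 above it (0.04 to 0.28, adjusted p = 0.888). For the other 5 neighbours the departure was at most 0.12. Intervals this wide leave room for shares well away from the midpoint at F2r, Rasgrf2 and AW495222. At Sv2c, Col4a3bp, Ankrd34b and Map1b the difference with both alleles lost was itself small beside its standard error. Their shares are therefore no better determined.

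The step from 1 to no intact allele passed the test at 3 genes (0.0152%), Msh3, Rasgrf2 and Cmya5. Against Msh3+/-, Msh3-/- libraries had a log2 difference of 0.73 (SE 0.0335) for Msh3, -0.74 (SE 0.129, edgeR adjusted p = 0.0061) for Rasgrf2 and -0.64 (SE 0.069) for Cmya5. F2r had 0.37 (SE 0.0954, adjusted p = 0.613). The difference between the first and the second step is what the midpoint test above measures, and it passed for Msh3 and not for F2r, Rasgrf2 or Cmya5.

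**Figure D2:**
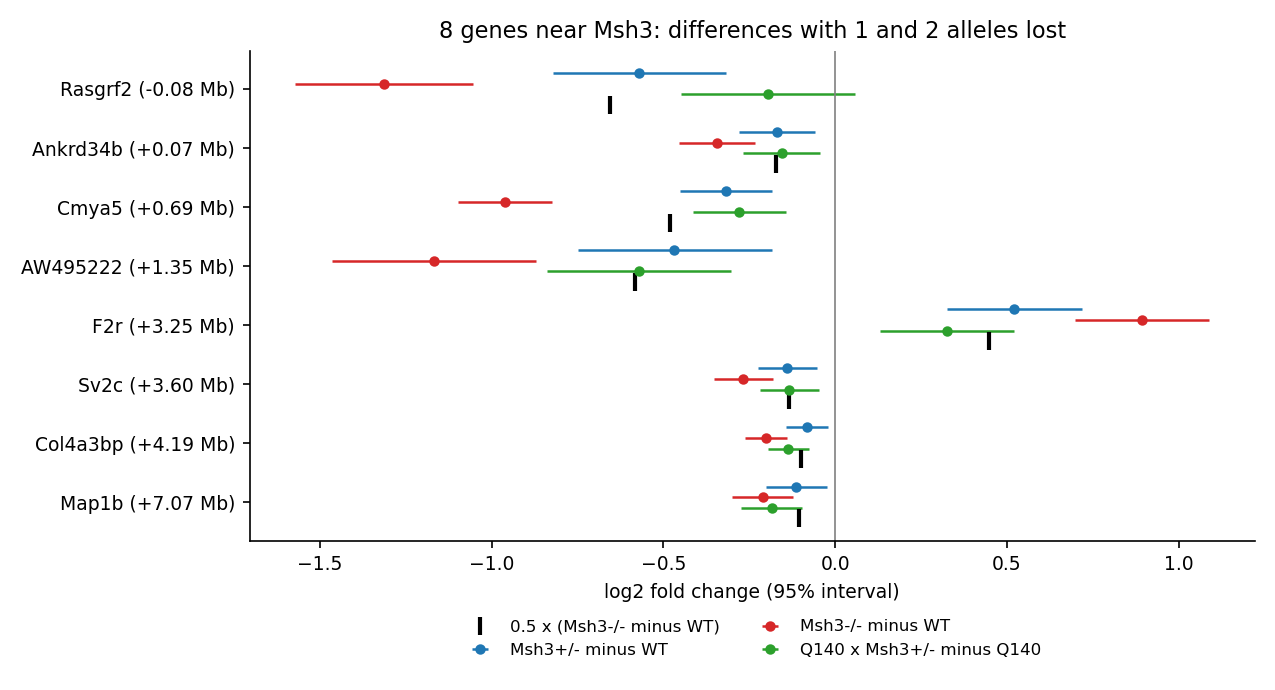
Log2 fold change (horizontal axis) with its 95% interval for 8 genes near Msh3, ordered by distance from the Msh3 gene body, for Msh3+/- minus WT (blue), Msh3-/- minus WT (red) and Q140 x Msh3+/- minus Q140 (green); the black tick is the Msh3-/- difference times 0.5. The blue points lie near the ticks, with F2r at 0.52 and Cmya5 at -0.32, and the blue and red comparisons share their WT libraries.

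The Msh3+/- male 4 library carried the Msh3 level of its group, 76.5 CPM, but lay toward WT at the neighbours. It was outside the range of the other 7 Msh3+/- libraries on the WT side at 7 of the 8 neighbours, and within the WT range at the same 7. Ankrd34b was the exception, at 24.3 CPM in male 4 and 22.1 to 28.3 CPM in the other 7. Rasgrf2 was at 58.9 CPM in male 4 and 29.6 to 43.3 CPM in the others, against 47.5 to 68.5 CPM in WT. Map1b was at 1294 CPM in male 4 and 1021 to 1219 CPM in the others. No other Msh3+/- library was nearest to WT at more than 1 of the 8 genes. Without male 4, 4 genes passed the test: Msh3, F2r (0.57, edgeR adjusted p = 0.00546), Rasgrf2 (-0.68, adjusted p = 0.00805) and Cmya5 (-0.36, adjusted p = 0.00805). AW495222 (-0.57, adjusted p = 0.433) and Sv2c (-0.16, adjusted p = 0.637) did not pass without it, nor did Ankrd34b, Col4a3bp and Map1b (each adjusted p = 0.83). Male 4 was singled out by its levels at these same neighbours, so leaving it out widens their differences by choice. The calls gained without it are a description and no separate support. The higher cortical marker sum of the same library, 328.8 CPM, stands beside these values, and its part in them was not tested.

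Beyond the named neighbours the region was quiet. Of 59 tested genes within 5 Mb of Msh3, not counting Msh3, 1 passed the test with 1 allele lost, F2r, and 8 (13.6%) had an unadjusted p under 0.05, against 4.72% of genes on other chromosomes. Within 2 Mb these were 5 of 25 genes (20%), from 2 to 5 Mb 3 of 34 (8.82%), from 5 to 10 Mb 5 of 55 (9.09%), and from 10 to 20 Mb 6 of 100 (6%). The 8 include 7 of the neighbours chosen above with the same WT libraries, so the excess is no separate finding. The remaining gene was Papd4, a poly(A) polymerase gene, at -0.15. Of other tested genes next to Msh3, the following 7 did not pass. Ssbp2, which encodes a single-stranded DNA binding protein, was at -0.01 (95% interval -0.08 to 0.05). Zcchc9 was at 0.01 (-0.09 to 0.11) and Zfyve16, an endosomal protein gene, at -0.02 (-0.10 to 0.07). Fam151b was at -0.11 (-0.26 to 0.03). Acot12 at 0.24 (-0.22 to 0.71), 4833422C13Rik at 0.05 (-0.24 to 0.34) and C030017D09Rik at -0.32 (-0.91 to 0.27) were at low levels, and their intervals were wide.

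**Figure D3:**
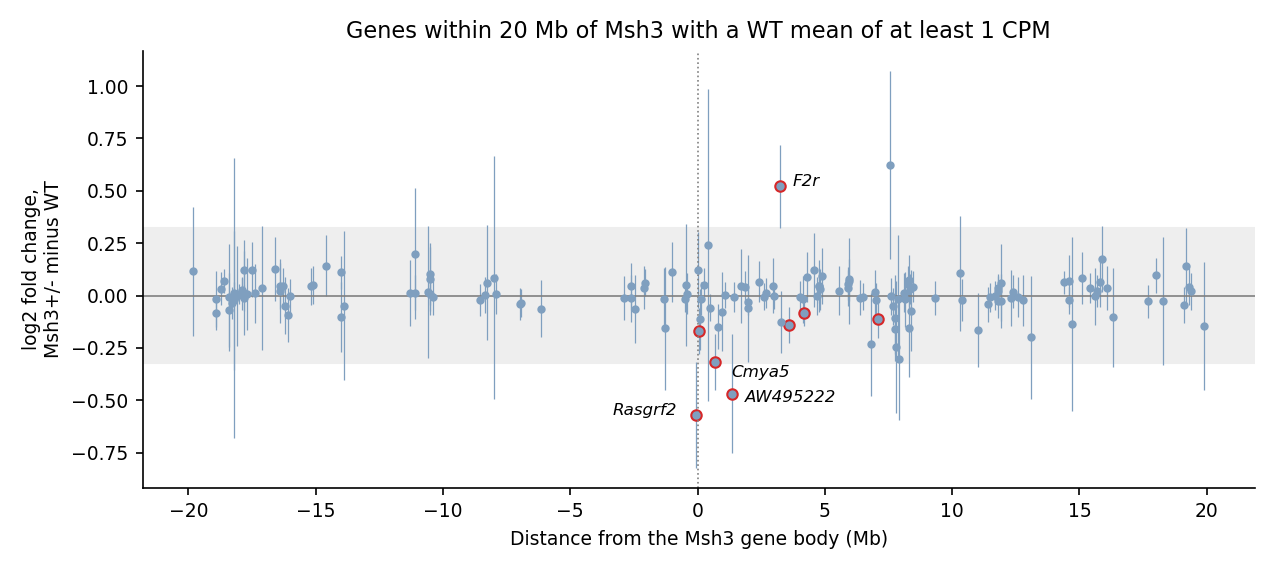
Log2 fold change of Msh3+/- minus WT with its 95% interval (vertical axis) against distance from the Msh3 gene body in Mb (horizontal axis), for genes within 20 Mb with a WT mean of at least 1 CPM; Msh3 is left out, red rings mark the 8 neighbours and the grey band spans 20% lower to 25% higher. Rasgrf2, AW495222, Cmya5 and F2r stand out from a row of points near 0 on both sides.

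How large a difference the rest of the transcriptome could hold was read from the 95% intervals. For 12622 of the 19714 genes (64% of those tested) the whole interval lay between 20% lower and 25% higher, here called the 25% bound. The share was 97.3% of 7832 genes with a mean of 10 to 100 CPM and 98.9% of 2274 genes at 100 CPM or more, but 53.6% of 5128 genes at 1 to 10 CPM and 0.0893% of 4480 genes under 1 CPM. A bound of 1.5-fold held for 78.9% of all genes and of 2-fold for 92.4%. At under 1 CPM these were 16.9% and 68%. A bound is a statement on 1 gene at 95% confidence and not on all genes together.

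**Figure D4:**
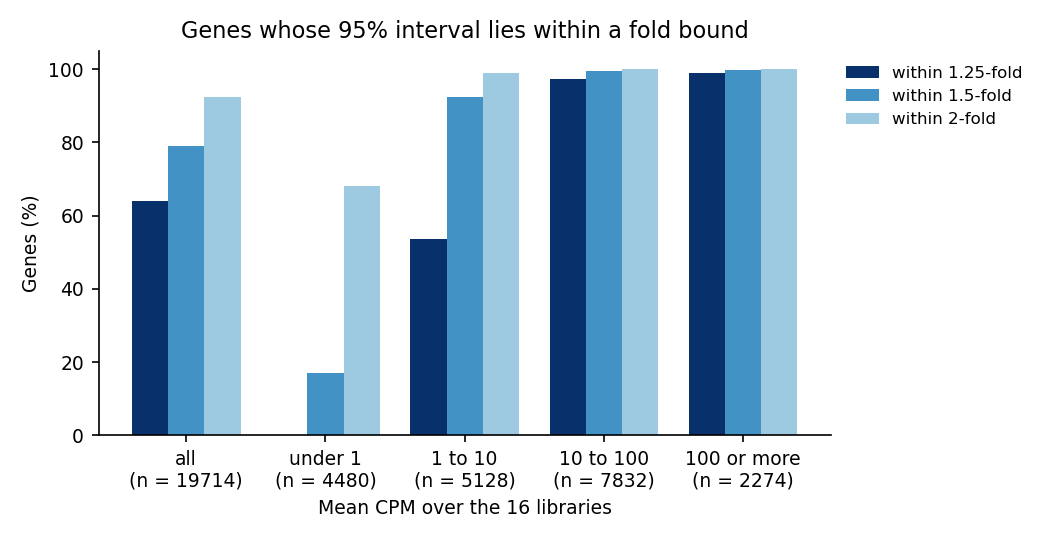
Percent of tested genes (vertical axis) whose 95% interval for Msh3+/- minus WT lies within a fold bound of no difference (dark bars the 25% bound, then 1.5-fold and 2-fold), for all genes and by mean CPM over the 16 libraries (horizontal axis, with the number of genes). From 10 CPM upward nearly every gene is within the 25% bound (97.3% and 98.9%), and under 1 CPM almost none is (0.0893%).

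The interval lay wholly outside the 25% bound for 11 genes, of which Msh3 and F2r passed the test. The other 9 averaged under 1 CPM in both groups, among them Gm38340, an experimentally untested transcript on chromosome 7 at 0.468 to 1.101 CPM in WT and 0.0671 to 0.492 CPM in Msh3+/-. Its log2 difference of -1.63 (SE 0.381) had an edgeR adjusted p of 0.244. In the alternative with limma on FPKM, described below, it did pass. Gm2420 had 0 to 5 counts a library in WT and 0 to 1 in Msh3+/-, too few for a fold. Among expressed genes with the smallest p, Zfp984, a zinc finger gene, was at 0.49 (SE 0.107, adjusted p = 0.154) and Pinx1, a telomerase inhibitor gene, at -0.35 (SE 0.0822, adjusted p = 0.283). Prdx1 and Prdx3, which encode the cytosolic and mitochondrial peroxiredoxins that remove peroxides, were at 0.14 (SE 0.0355, adjusted p = 0.429) and 0.15 (SE 0.0405, adjusted p = 0.938). Prdx1 spanned 80.3 to 95.5 CPM in Msh3+/- and 73.5 to 81.2 CPM in WT, so the groups overlapped slightly. Map2k3, a p38 kinase activator gene, was at 0.25, Fgd1 at -0.17 and Gm7204 at 0.41, with adjusted p from 0.558 to 0.938. Of these genes none passed in the edgeR fit over all 48 libraries.

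The named functions were read from 31 lists holding 418 genes, of which 404 were tested. Of these, 313 (77.5%) were within the 25% bound, against 64% of all genes tested, 11 (2.72%) had an unadjusted p under 0.05 and 1 passed, F2r. The bound follows abundance and the lists were not matched to other genes by level. A list's share within it is therefore no trait of its function. The median log2 difference over the 404 was 0.004, beside -0.002 over all genes. Of the 404, 215 had differences above 0 and 189 below, beside 9316 and 9720 of the genes on other chromosomes. Members of a list were measured in the same libraries and are not independent. The counts of signs given for single lists below are therefore no tests. In the other 30 lists no member passed the test.

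**Figure D5:**
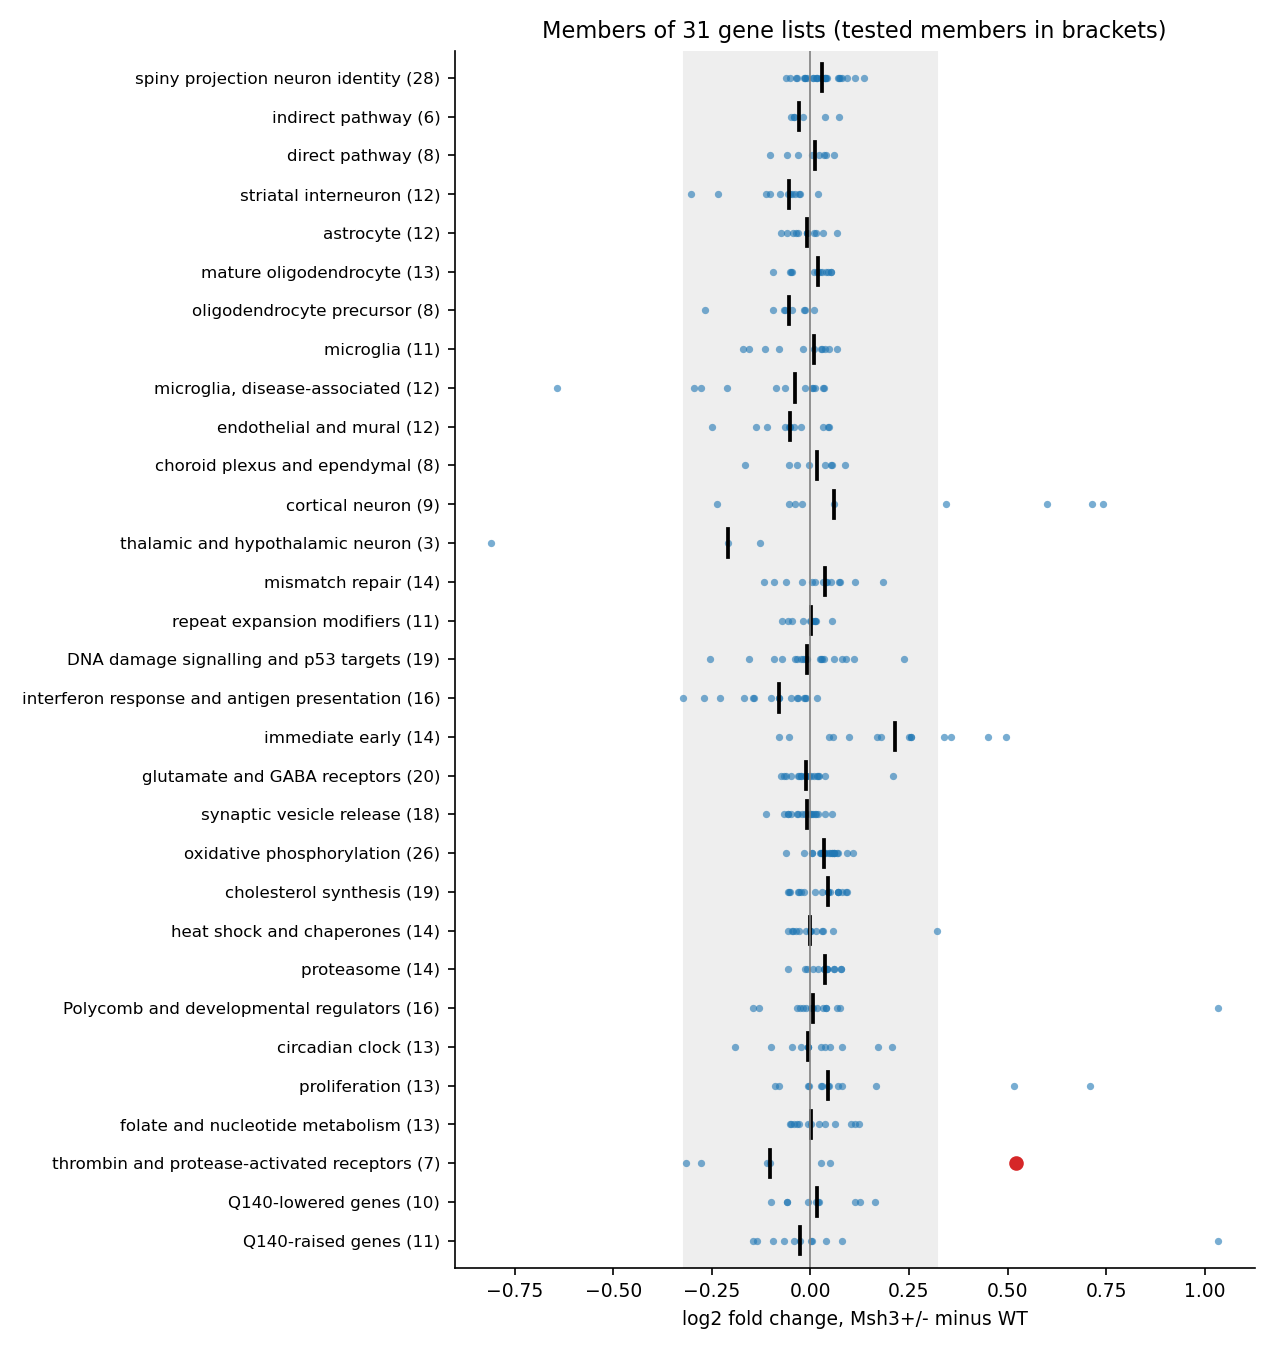
Log2 fold change of Msh3+/- minus WT (horizontal axis) for each tested member of 31 gene lists (rows, number tested in brackets); the black bar is the list's median, the grey band 20% lower to 25% higher and the red point F2r, the member that passed the test. Identity, respiratory and proteasome lists are narrow, while immediate early, cortical and low-level members spread, and the points at 1.04 are Onecut1, with at most 6 counts a library.

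All 28 spiny projection neuron genes had intervals within the 25% bound, with a median of 0.03 and a range from -0.06 to 0.14. Each averaged above 10 CPM in WT. Of all genes tested, 97.3% at 10 to 100 CPM and 98.9% at 100 CPM or more were within the same bound. The share of this list is thus near that of any genes at such levels. Ppp1r1b, which encodes DARPP-32, spanned 2153 to 2593 CPM with a median of 2404 in Msh3+/- and 2095 to 2502 CPM with a median of 2287 in WT, and its difference was 0.04 (95% interval -0.04 to 0.12). For scale, the 8 Q140 libraries spanned 1212 to 1439 CPM. Scn4b, a sodium channel beta subunit gene, had the interval end farthest from 0, with 0.14 (-0.01 to 0.28). All 6 tested indirect-pathway genes and all 8 direct-pathway genes were bounded too, Upb1 with the widest reach among the former (0.07, -0.13 to 0.27). Drd2 and Penk, the D2 receptor and enkephalin precursor genes, were at -0.04 (-0.13 to 0.04) and -0.04 (-0.15 to 0.06), and Drd1, the D1 receptor gene, was at 0.03 (-0.05 to 0.12). Ebf1, a transcription factor gene of the direct pathway, was at -0.10 (unadjusted p = 0.028, edgeR adjusted p = 0.981).

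No repair gene other than Msh3 passed the test. Msh6, which encodes another MutS protein, was at 0.00 (95% interval -0.10 to 0.10). Of the MutL genes, Mlh3 was at 0.03 (-0.03 to 0.10), Pms2 at 0.01 (-0.07 to 0.09) and Pms1 at -0.12 (-0.29 to 0.06). Of 14 tested mismatch repair genes 10 lay within the 25% bound. Among the excision and resynthesis genes Pcna, the sliding clamp gene, was at 0.08 (-0.02 to 0.17), Rpa1 at 0.04 (-0.04 to 0.12) and Lig1, a DNA ligase gene, at -0.06 (-0.19 to 0.07). All 11 modifiers of repeat length outside mismatch repair lay within the 25% bound, among them Fan1, a nuclease gene, at 0.01 (-0.10 to 0.13) and Neil1, a DNA glycosylase gene, at 0.06 (-0.11 to 0.22). Htt was at 0.01 (-0.06 to 0.08), with 217.0 to 255.5 CPM in Msh3+/- and 216.6 to 237.1 CPM in WT. Of 19 DNA damage and p53 genes 13 were within the 25% bound and 0 had an unadjusted p under 0.05. Trp53 was at -0.02 (-0.10 to 0.06), Cdkn1a, the p21 gene, at 0.11 (-0.15 to 0.37), Sesn1, a sestrin gene, at -0.04 (-0.12 to 0.04) and Gadd45a at -0.26 (-0.53 to 0.02). Folate and nucleotide genes were bounded in 12 of 13, with Mthfd1 at -0.05 (-0.12 to 0.01) and Shmt1 at 0.10 (-0.17 to 0.38). Proliferation genes were bounded in 7 of 13. Mcm4, a replicative helicase gene, was at 0.00 (-0.11 to 0.11), while Top2a at -0.09 (-0.83 to 0.65) and Cdk1 at 0.71 (-0.22 to 1.64), both low, were hardly bounded.

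Thrombin signalling genes around F2r gave no call other than F2r. Of 10 listed genes 7 were tested, since F2rl2, F2rl3 and F2 were below the count filter. Serpine2, which encodes the thrombin inhibitor protease nexin-1 and had the highest WT level per length in the list at 26.8 FPKM, was at 0.05 (95% interval -0.01 to 0.11). F2r itself had a WT mean of 1.101 FPKM. Thbd, the thrombomodulin gene, was at -0.10 (-0.39 to 0.19) and Procr, at 0.427 CPM in WT, at -0.32 (-0.90 to 0.27).

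Markers of other cell types were mostly within the 25% bound, and none passed the test. All 13 mature oligodendrocyte genes and all 11 tested microglia genes lay within the 25% bound, with medians of 0.02 and 0.01. Mbp, the myelin basic protein gene, was at 0.03 (95% interval -0.07 to 0.14) and C1qb, a complement gene, at -0.17 (-0.32 to -0.02, edgeR adjusted p = 0.981). Of 12 astrocyte genes 11 were bounded, the exception being Gfap, the intermediate filament gene of reactive astrocytes, at -0.08 (-0.50 to 0.35). Glul, for glutamine synthetase, was at -0.04 (-0.12 to 0.05) and Slc4a4 at 0.07 (0.00 to 0.14). In mature oligodendrocytes Fa2h was at -0.10 (-0.23 to 0.03) and Opalin at 0.04 (-0.19 to 0.27). Oligodendrocyte precursor genes were bounded in 7 of 8, with Olig1 at -0.02 (-0.11 to 0.08), Olig2 at -0.10 (-0.21 to 0.02) and Gpr17 at -0.07 (-0.23 to 0.10). Endothelial and mural genes were bounded in 10 of 12, with Vtn at -0.05 (-0.18 to 0.08) and Flt1, a VEGF receptor gene, at -0.25 (-0.55 to 0.05). Among 12 interneuron genes 11 had differences below 0 and 9 were bounded. Sst, the somatostatin gene, was at -0.11 (unadjusted p = 0.0316) and Th, for tyrosine hydroxylase, at -0.24 (unadjusted p = 0.013), each with an adjusted p of 0.981, and Calb2, for calretinin, at -0.30 (-0.85 to 0.24). The list's summed level spanned 491.4 to 520.5 CPM in Msh3+/- and 514.5 to 546.0 CPM in WT.

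Disease-associated microglia genes were bounded in 7 of 12. Those not bounded include Spp1, at a mean of 8.24 CPM in WT. Clec7a, a lectin receptor gene at 0.659 CPM in WT, was at -0.64 (95% interval -1.23 to -0.05, edgeR adjusted p = 0.981), while Apoe was at -0.09 (-0.18 to 0.01) and Spp1, for osteopontin, at 0.00 (-0.43 to 0.44). Tissue at the edge of the dissection could not be bounded. Of 9 cortical neuron genes 3 lay within the 25% bound, and the interval of Slc17a7 ran from -0.44 to 1.87 around 0.72. Nrn1 was at 0.74 (-0.23 to 1.71) and Mef2c, which striatal neurons also express, at -0.02 (-0.10 to 0.06). The male 4 library had the highest Slc17a7, Nrn1, Tbr1 and Neurod6 levels of the 16. Of 8 tested choroid plexus and ependymal genes 1 lay within it, and Ttr, the transthyretin gene made by choroid plexus, was at 0.05 (-1.21 to 1.31), with 1.81 to 33.1 CPM in Msh3+/- and 4.09 to 39.02 CPM in WT. Foxj1, of ciliated ependyma, was at -0.17 (-0.47 to 0.14). Of 3 tested thalamic and hypothalamic genes 1 was bounded, Zic1 at -0.13 (-0.28 to 0.02), and Tcf7l2 was at -0.21 (-0.48 to 0.06). Agrp, Avp, Oxt, Pmch and Lhx9, of the same list, were below the count filter.

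The oxidative phosphorylation, proteasome, cholesterol and vesicle release lists were within the 25% bound for every tested member, and that of receptors for all but Gabra2. All 26 oxidative phosphorylation genes lay within the 25% bound, 24 with differences above 0 and a median of 0.04, and 0 of them had an unadjusted p under 0.05. Their summed levels overlapped, at 4068 to 4254 CPM in Msh3+/- and 3741 to 4273 CPM in WT. Cox5a, of complex IV, was at 0.07 (95% interval -0.01 to 0.15), Ndufa2, of complex I, at 0.11 (-0.01 to 0.23) and Atp5a1, of the ATP synthase, at 0.04 (-0.03 to 0.10). All 14 proteasome genes were bounded, with Psmb1 at 0.04 (-0.03 to 0.11), Psmb4 at 0.08 (-0.03 to 0.19) and Psmb7 at 0.08 (unadjusted p = 0.0417, edgeR adjusted p = 0.981). All 19 cholesterol synthesis genes were bounded, with Hmgcs1 at 0.01 (-0.11 to 0.13), Lss at 0.07 (-0.01 to 0.15) and Idi1 at 0.04 (-0.14 to 0.23). All 18 synaptic vesicle genes were bounded as well, with Cplx2, for complexin 2, at 0.02 (-0.08 to 0.12) and Unc13a, a vesicle priming gene, at -0.11 (-0.22 to 0.00, unadjusted p = 0.0442, adjusted p = 0.981). Of 20 glutamate and GABA receptor genes 19 were, with Gabbr1 at -0.01 (-0.07 to 0.05) and Grin1, the obligatory NMDA receptor subunit gene, at -0.07 (-0.13 to 0.00, unadjusted p = 0.0405, adjusted p = 0.981), and Gabra2, at 0.21 (-0.11 to 0.53), was not.

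Genes that follow the state of the animal gave no call. Of 14 immediate early genes, which neuronal activity induces within minutes, 3 were within the 25% bound, 12 had differences above 0, the median was 0.21 and 0 had an unadjusted p under 0.05. Nr4a1 spanned 48.6 to 187.2 CPM with a median of 127.9 in Msh3+/- and 30.4 to 161.5 CPM with a median of 76.5 in WT, with a difference of 0.50 (95% interval -0.08 to 1.07, edgeR adjusted p = 0.981). Egr1 was at 0.10 (-0.23 to 0.43) and Egr2 at 0.45 (-0.19 to 1.09). The list summed to between 599.2 and 1600 CPM in Msh3+/- and between 605.0 and 1312 CPM in WT. Of 16 interferon and antigen presentation genes 5 were bounded and 15 had differences below 0, with a median of -0.08. WT female 2 stood apart there, with a summed level of 289.2 CPM, against 168.8 to 204.3 CPM in the other 7 WT and 162.1 to 193.8 CPM in the Msh3+/- libraries. B2m, for beta-2 microglobulin, was at -0.17 (-0.36 to 0.02) and Oasl2 at -0.32 (-0.73 to 0.08). Clock genes were bounded in 9 of 13, with Arntl, the BMAL1 gene, at -0.19 (unadjusted p = 0.044, adjusted p = 0.981), Tef at 0.08 (-0.02 to 0.19) and Per2 at -0.10 (-0.48 to 0.28). Heat shock genes were bounded in 11 of 14, with Hspa1a, an inducible Hsp70 gene, at 0.32 (-0.01 to 0.65), Hsp90ab1 at -0.03 (-0.10 to 0.05) and Hspa5, the BiP gene, at -0.05 (-0.28 to 0.18).

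Regulators of development and the genes that mark the Q140 state were examined last. Of 16 Polycomb and developmental genes 15 were bounded, and Ring1, a Polycomb ubiquitin ligase gene, was at -0.13 (95% interval -0.21 to -0.05, unadjusted p = 0.00292, edgeR adjusted p = 0.981). Cbx7 was at -0.01 (-0.08 to 0.05) and Sfmbt2 at -0.03 (-0.32 to 0.27). The lists of genes lowered and raised in Q140 mice were chosen on this series with the same WT libraries. Of their 10 and 11 members, 3 and 6 were within the 25% bound and 10 and 10 within 1.5-fold. Gpx6, a glutathione peroxidase gene, was at 0.16 (-0.19 to 0.51), Mas1 at 0.11 (-0.11 to 0.34) and Abhd11os at 0.02 (-0.25 to 0.28). Of the raised genes, Emx2 was at -0.15 (-0.31 to 0.02), Onecut2 at 0.00 (-0.19 to 0.19) and Dsg2 at -0.07 (-0.58 to 0.44).

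The difference was compared between the sexes by giving every genotype its own level in each sex. No gene passed (0 of 19714, 0%), and 748 had an unadjusted p under 0.05. Msh3 was higher by 1.39 (SE 0.0456) in females and 1.31 (SE 0.0455) in males. Rasgrf2 was at -0.73 (SE 0.184) in females and -0.41 (SE 0.184) in males, the latter including male 4. The WT females include both WT libraries of another name prefix, F3 at 63.5 CPM and F4 at 67.5 CPM. The other WT females were at 47.9 CPM (F1) and 66.7 CPM (F2). With 4 mice of each sex and genotype, a missed threshold does not show that the sexes were alike. In the interferon list 5 of 16 genes had an unadjusted p under 0.05 for the sex difference, among them Irf7, whose difference was 1.15 higher in males than in females (adjusted p = 1), and the WT library with the high interferon sum was female.

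The loss of 1 allele was also measured in Q140 mice, in libraries that share none with the 16. There 260 genes passed the test (1.32%), 166 higher and 94 lower. Msh3 was at 1.30 (SE 0.0344). Of the 8 neighbours 4 passed: Cmya5 fell by 0.28 (edgeR adjusted p = 0.0195), AW495222 by 0.57 (adjusted p = 0.0156), Map1b by 0.18 (adjusted p = 0.0183) and Col4a3bp by 0.14 (adjusted p = 0.00988). F2r was at 0.33 (SE 0.097, adjusted p = 0.0756), Rasgrf2 at -0.20 (SE 0.126, adjusted p = 0.509), Sv2c at -0.13 and Ankrd34b at -0.16. The contrast that chose the neighbours did not include these libraries, and all 8 had the sign they had without Q140. Tested directly, the difference between the 2 backgrounds passed for none of the 8. It was widest for Rasgrf2, at 0.38 (95% interval 0.02 to 0.73, adjusted p = 0.516), and was -0.20 (-0.47 to 0.08) for F2r.

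Over all genes the 1-allele difference itself differed between the backgrounds at 3 genes (0.0152%), Fst, Abhd11os and Nptx1. Fst, the follistatin gene, spanned 4.70 to 6.88 CPM in Msh3+/- and 3.69 to 7.41 CPM in WT, overlapping throughout, with a difference of 0.02 (95% interval -0.25 to 0.29). In Q140 mice it was at 2.85 to 4.57 CPM with 1 allele lost and 0.937 to 2.93 CPM with both intact, a rise of 1.204 (SE 0.15). Nptx1, a synaptic pentraxin gene, was at 0.04 (-0.10 to 0.18) without Q140 and rose by 0.58 (SE 0.072) with it. Abhd11os was at 0.02 (-0.25 to 0.28) without Q140, and with it rose by 1.15 (SE 0.151). Ppp1r1b, Drd1 and Penk, at 0.04, 0.03 and -0.04 without Q140, rose by 0.17 (adjusted p = 0.0149), 0.19 (adjusted p = 0.00898) and 0.27 (adjusted p = 0.00255) with it. For these 3 genes the difference between backgrounds did not pass (adjusted p = 0.45, 0.392 and 0.0997). The count of 3 genes moved from 0 with the number stem of the sample name as a term to 51 with DESeq2, so the number of such genes rests on the method.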

How the data were processed

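Striatal RNA of 48 mice was sequenced from stranded TruSeq libraries, per the labels' protocols. The deposited tables hold whole-number counts per gene and FPKM for 48795 genes. Per the submitters' processing notes, the authors used STAR 2.7.5c, SAMtools 1.10 and HTSeq 0.12.3 with GRCm38 (mm10). The sources used here do not give the annotation release or strand setting. Of the gene identifiers, 48435 were found in GENCODE M21, which gave positions; 27 symbols turned into dates were restored. Library totals ran from 38.9 to 60.9 M counts.

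The test was edgeR 4.0.16 (R 4.3.3) on the counts, with TMM factors, filterByExpr with a minimum count of 10 (19714 genes kept, 29081 removed), robust quasi-likelihood fit of 6 genotypes and sex over 48 libraries (41 residual degrees of freedom), with Benjamini-Hochberg adjustment over all genes and a threshold of 0.05. The 95% intervals use the fit's standard error and a t quantile, and cover 1 gene at a time. The fit was tested on simulated data. CPM are TMM-scaled; the deposited FPKM were used for levels per length and in an alternative with limma 3.58.1. Other alternatives were DESeq2 1.42.0, other scaling and filters, other terms and leaving out libraries.

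Genes were named by rule: Msh3 and Htt, genes past the threshold, genes within 10 Mb past it in Msh3-/- minus WT, the 5 nearest tested genes on each side, the next 10 by p, and from each list the members with the smallest p, the highest FPKM and the interval end farthest from 0 (mean log2 CPM of at least 1). Msh6, Mlh3, Pms1, Pms2, Lig1, Fan1, Trp53, Cdkn1a, Thbd, Procr, Papd4, Onecut1, Irf7, Fst and Nptx1 were added after their values were seen. The comparison and the lists were chosen with earlier results of these data known. Some genes that the rule names are not reported here. Labels name separate mice, so p-values measure the spread between mice. Upstream sequences come from RefSeq (GRCm38.p6), where F2r, Rasgrf2 and Cmya5 matched.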

Additional observations from a re-analysis of the deposited data

Results flagged for a closer look

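In 28 genes looked at in both groups (56 sets of 8 libraries), 3 sets had a library whose gap to its nearest neighbour was more than 0.526 of the set's whole range. In independent sets 1 in 20 would be 2.8. The sets share libraries and the genes were picked by p or position in these data. That figure therefore cannot say whether a library is unusual. Msh3+/- male 4 was highest at Col4a3bp (91.2 CPM, gap 0.566 of the range) and at Rasgrf2 (58.9 CPM, gap 0.532 of the range). Msh3+/- male 2 was highest at Gm2420 (0.0213 CPM, the one library above 0, gap 1.0 of the range), where it held 1 count.

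At 3 genes the 1-allele difference with Q140 exceeded that without it by edgeR's test of the difference itself: Fst by 1.18 (adjusted p = 0.00817), Abhd11os by 1.13 (adjusted p = 0.0105) and Nptx1 by 0.54 (adjusted p = 0.0191).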

How the results depend on the processing

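Msh3 kept its direction and call in all 31 alternatives (1.09 to 1.37), the sex difference stayed at 0 genes in 29, and the genes within the 25% bound numbered 11355 to 18580 in 32, the highest with FPKM plus 1, which shrinks low genes. Genes past the threshold in Msh3+/- numbered 5 with DESeq2 (Msh3, F2r, Cmya5, Rasgrf2, Zfp984), 1 in the fit of 16 libraries and 1 without the 2 WT libraries of another name prefix. Leaving out single libraries gave 1 to 4. Within 5 Mb the count was 3, 0 and 0 in those settings, 0 in a window of 2 Mb, and 0 to 3 leaving out single libraries. F2r lost its call in the fit of 16 libraries (0.524), without those WT libraries (0.512) and with the name stem as a term (0.422, where Sv2c passed), and spanned 0.485 to 0.565 leaving out single libraries. With the name stem, 5 genes passed in Msh3-/-, against 9. Only 3 stems occur in both Msh3+/- and WT, so that term leaves few libraries to compare directly between these 2 groups. With limma on FPKM plus 0.1 and on FPKM plus 1, 3 genes passed in Msh3+/-: Msh3, F2r and Gm38340, the last on chromosome 7. In Msh3-/- both limma settings gave 9 genes, among them Gm38340 and without Map1b. DESeq2 put 2 genes off the midpoint, Msh3 and Prdx1. The difference between backgrounds gave 5 genes with total counts, 51 with DESeq2, 10 and 12 with limma on FPKM plus 0.1 and plus 1, 10 with plate column, 0 with the name stem, and 2 to 9 leaving out single libraries (9 without Msh3+/- F1, 7 without WT F2, 6 without Msh3+/- M3). The cause of these shifts was not tested. Leaving out the 4 libraries apart on the first residual component, chosen after seeing the data and none of them Msh3+/- or WT, gave 2 genes in Msh3+/-, 8 in Msh3-/- and 3 between backgrounds.

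Replicate numbers did not pair the samples: 1 of 8 pairs deviated together with a correlation over 0.1. With a replicate block, 2 genes passed in Msh3+/-, F2r was at 0.516 (adjusted p = 0.0225), and the other counts stayed within 1.5 times. Fewer genes were bounded at low counts, and what depth adds to that was not tested.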

Other observations

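Rasgrf2 levels in WT fell into 2 sets, each with both sexes: 47.5 to 54.8 CPM in F1, M2, M3 and M4, and 63.5 to 68.5 CPM in F2, F3, F4 and M1. The higher set holds both WT libraries of another name prefix, F3 and F4, and also F2 and M1 of the shared prefix. Both sets lie above every Msh3+/- library but male 4.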
